A study of Saccharomyces cerevisiae with 10 samples.

Results

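The comparison set budding yeast without SUB2 (sub2del, 2 arrays) against budding yeast without HPR1 (hpr1del, 3 arrays), which are 5 of the 10 arrays of a study of THO/TREX mutants. Members were the array columns titled for these strains, and no wild type array entered the test. The sub2del strain, DLY23, carries sub2∆::HIS3 and the hpr1del strain, SChY58a, carries hpr1∆::kanMX4. For context, the other 5 arrays are given beside them, namely tho2del (tho2∆::KanMX4, 2 arrays) and the wild type W303-1A (WT, 3 arrays). All 4 strains are MATa and share the marker alleles ade2-1 and can1-100, then his3-11,15 with leu2-3,112, and also trp1-1 and ura3-1. Cells were taken at mid-log phase from liquid YPAD, a rich glucose medium with added adenine, and biotin-labelled cRNA from total RNA was hybridised to 1-colour Affymetrix arrays. The labels name 1 strain per genotype and call the arrays biological replicates. Since they do not say how the cultures were run, a p-value here covers only the scatter of these arrays, which may be technical. In total RNA of a culture, a change of RNA per cell and a change in the mix of cells cannot be told apart.

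THO is a protein complex that travels with RNA polymerase II, and with further proteins it forms TREX, which packs nascent mRNA and hands it to the export receptor. Hpr1 is a core subunit of THO. Sub2 is an RNA helicase that joins THO on the transcript, helps to load the export adaptor Yra1, and also takes part in splicing. Strains without either gene are known for slow growth, retention of mRNA in the nucleus and hyper-recombination linked to transcription. A direct comparison of the deletions asks where loss of the helicase and loss of the THO subunit leave different transcript levels.

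The values are linear intensities from the deposited table, with 1 for each probe set on each array. Differences are of log2(intensity + 16), sub2del minus hpr1del, so a positive value is higher in sub2del. Errors after ± are standard errors (SE) of the fitted difference, from 2 sub2del and 3 hpr1del arrays, and genes called higher or lower passed the test below unless stated otherwise. Of 5716 probe sets, 4831 had at least 2 values in each strain and were tested, and 3310 of them (68.5%) were called at a limma adjusted p under 0.05. Of all tested probe sets 21.6% were called higher in sub2del and 46.9% lower, and the median log2 difference was -0.16, with 5th and 95th percentiles of -1.03 and 0.81. Differences of at least 2-fold were fewer, with 154 probe sets (3.19%) higher and 260 (5.38%) lower. Shares of called members in any list below, on the 5 arrays, are to be read against these background shares. The 2 sub2del arrays differed from each other with an SD of 0.21 over probe sets on the log2 scale, the hpr1del arrays with 0.089 to 0.17, and the strain means with 0.58. The smallest 1-sided p of an exact permutation of 2 against 3 arrays gives 0.2 when doubled, so single genes rest on the fit across all probe sets.

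Empty cells of the table split the arrays in the same way as the strains. The sub2del arrays had 479 and 811 empty cells, against 12, 9 and 7 on the hpr1del arrays, 717 and 667 on the tho2del arrays, and 66, 414 and 38 on the WT arrays. Within the 5 arrays of the comparison, whatever made cells empty and the deleted gene cannot be told apart. WT replicate 2 shares the high number of empty cells, so its difference from WT replicates 1 and 3 is given beside the gene groups, together with a fit on all 10 arrays that has the class of empty cells (many or few) as a block. In that fit WT alone estimates the class, so a gene's blocked difference moves opposite to its WT difference, and medians are over the members that have WT values in both classes. Of 4598 probe sets tested in it, 1157 were called lower and 545 higher, the background for counts with the class block below. Over tested probe sets the WT difference had an SD of 0.35 and a median of 0.018. For 3160 called probe sets with WT values in both classes, it had the same sign as sub2del minus hpr1del in 1567 cases and was at least as large in 229.

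Each deleted gene was lowest in its own strain. SUB2 read 104 and 54.6 in sub2del, against 13351, 13156 and 12732 in hpr1del, 12443 and 13406 in tho2del and 11974, 12692 and 12448 in WT. Its log2 difference was -7.15 ± 0.21 (SE, limma adjusted p = 2.04e-05), and no sub2del array came near any other array. HPR1 read 576 and 541 in sub2del, against 188, 209 and 209 in hpr1del, 651 and 686 in tho2del and 517, 572 and 629 in WT. It was 2.64-fold higher in sub2del, a log2 difference of 1.40 ± 0.068 (SE, limma adjusted p = 3.84e-05), and the sub2del arrays overlapped those of WT. The level left in hpr1del was a larger share of the other strains' than SUB2's was in sub2del. The position of the HPR1 probes within the gene was not analysed here.

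Of the other genes of the complex, most differed by little. THO2, the largest THO subunit, read 1257 and 1116 in sub2del, against 1428, 1308 and 1411 in hpr1del, 322 and 183 in tho2del and 2483, 2556 and 2363 in WT, so that sub2del and hpr1del arrays stood well below WT and the difference between them was -0.22 ± 0.074 (SE, limma adjusted p = 0.0379). With the class block neither THO2 (-0.30, limma adjusted p = 0.493) nor THP2 (0.13, limma adjusted p = 0.457) was called. MFT1, another THO subunit, read 1469 and 1677 in sub2del, against 1090, 1101 and 1079 in hpr1del, with 1618 and 1563 in tho2del and 845, 905 and 809 in WT. It was higher in sub2del by 0.52 ± 0.069 (SE, limma adjusted p = 0.00096), where the sub2del arrays lay with those of tho2del. THP2 read 458 and 486 in sub2del, against 396, 425 and 395 in hpr1del, a difference of 0.21 ± 0.061 (SE, limma adjusted p = 0.0206). TEX1, a WD-repeat subunit, read 549 and 523 in sub2del, against 798, 738 and 766 in hpr1del, lower in sub2del, at a log2 difference of -0.50 ± 0.058 (SE, limma adjusted p = 0.000558), and the hpr1del arrays lay among the WT arrays (681, 825 and 719.8 in WT). The export adaptor gene YRA1 read 11922 and 11372 in sub2del, against 11273, 11761 and 11428 in hpr1del, a difference of 0.02 ± 0.053 (SE, limma adjusted p = 0.757), while 7001, 8411 and 7562 in WT were lower than all 5. Its paralog YRA2 read 1194 and 1157 in sub2del, against 2062, 1794 and 1885 in hpr1del, with 2546, 2632 and 2472 in WT, and differed by -0.69 ± 0.072 (SE, limma adjusted p = 0.000369). Of the shuttling mRNA-binding proteins, GBP2 read 7192 and 6568 in sub2del, against 5408, 6920 and 6516 in hpr1del (0.14 ± 0.11 SE, limma adjusted p = 0.316) and HRB1 read 2974 and 3128 in sub2del, against 3818, 3630 and 3760 in hpr1del (-0.29 ± 0.055 SE, limma adjusted p = 0.00404). Over the 10 genes, 3 were called higher and 5 lower, the deleted genes included.

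**Figure D1:**
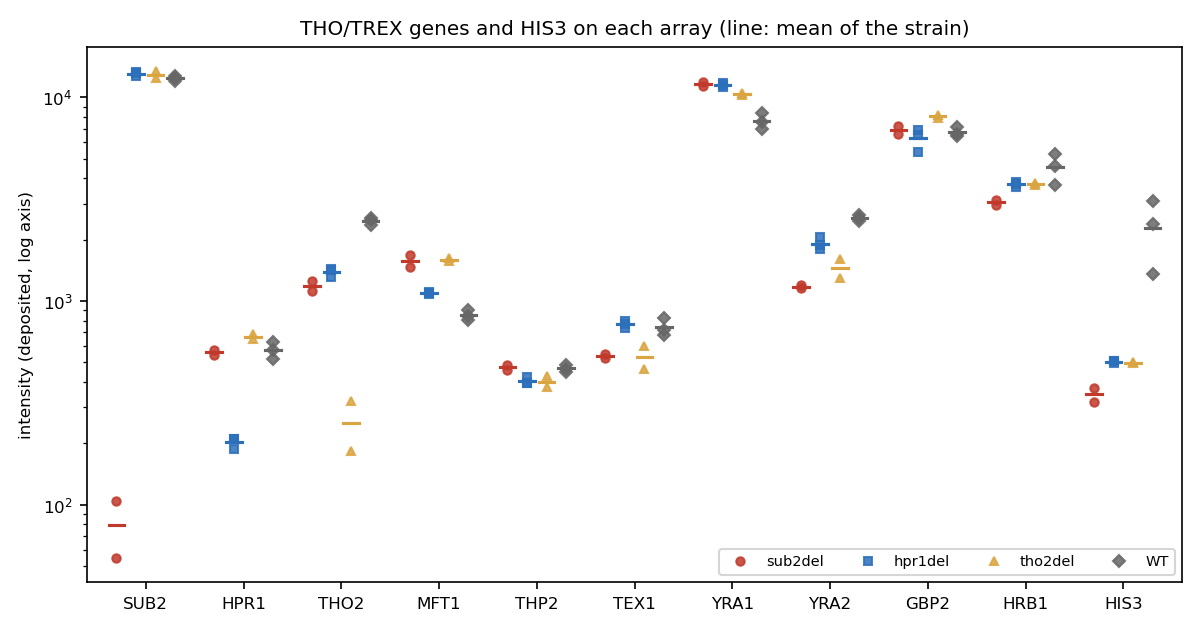
Deposited intensity (log axis) of 10 THO/TREX genes and HIS3 on every array, with sub2del first and then hpr1del, tho2del and WT, and a line at each strain's mean. SUB2 is near 100 or below only in sub2del, HPR1 is near 200 only in hpr1del, and HIS3 is lowest in sub2del. That strain carries the HIS3 marker, and whether the probe set reads it is not known.

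The marker genes and the neighbours of the deletions bear on the strains themselves. HIS3 replaces SUB2 in sub2del, and it read 321 and 374 in sub2del, against 506, 509 and 495 in hpr1del, 495 and 500.1 in tho2del and 1358, 3109 and 2380 in WT. It was lower in sub2del, at a log2 difference of -0.52 ± 0.074 (SE, limma adjusted p = 0.0013) and every WT array lay above every mutant array. Whether the HIS3 probe set reads the marker copy is not known here. Of the auxotrophic marker genes, LEU2 read 746 and 639 in sub2del, against 3041, 2595 and 2688 in hpr1del (-1.98 ± 0.097 SE, limma adjusted p = 3.87e-05), ADE2 read 665 and 561 in sub2del, against 1281, 1093 and 1039 in hpr1del (-0.87 ± 0.11 SE, limma adjusted p = 0.000859). CAN1, the arginine permease gene, read 1574 and 1684 in sub2del, against 2018, 2126 and 2155 in hpr1del (-0.36 ± 0.06 SE, limma adjusted p = 0.0023). URA3 alone was higher in sub2del, at 7717 and 6329 in sub2del, against 4646, 4546 and 4822 in hpr1del (0.58 ± 0.092 SE, limma adjusted p = 0.00194). All of them read higher on WT replicate 2 than on replicate 1, and the median WT difference of these genes was 0.60. With the class block LEU2, ADE2, HIS3 and CAN1 stayed lower (-2.58, -1.12, -1.30 and -0.48), and URA3 turned to -0.12 (limma adjusted p = 0.667).

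Next to SUB2, the gene YDL085C-A was higher in sub2del, at 1086 and 1030 in sub2del, against 631, 613 and 602 in hpr1del (0.77 ± 0.054 SE, limma adjusted p = 0.000104). RPL13A was lower, at 12098 and 11251 in sub2del, against 14044, 13494 and 13814 in hpr1del (-0.24 ± 0.057 SE, limma adjusted p = 0.0103). NDE2 (-0.12, adjusted p = 0.171) and RPS16B (-0.07, 0.253) also lie near SUB2 and were not called. Around HPR1, RGP1 differed by -0.35 ± 0.059, YCF1 by -0.21 ± 0.06 and RUB1, a ubiquitin-like modifier gene, by 0.27 ± 0.048, all called, and MTQ2 by -0.21 ± 0.088, not called. None of these 8 neighbours differed 2-fold. Of those called, YDL085C-A (0.32, limma adjusted p = 0.0589), RPL13A (-0.13, limma adjusted p = 0.395), RGP1 (-0.10, limma adjusted p = 0.587) and YCF1 (-0.04, limma adjusted p = 0.791) were not called with the class block.

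The named genes with the highest level in sub2del relative to hpr1del were mostly high in tho2del too. IZH4, a membrane protein gene of zinc homeostasis, read 11396 and 11169 in sub2del, against 807, 1641 and 1987 in hpr1del, 10465 and 11488 in tho2del and 2880, 324 and 253 in WT. It was 8.08-fold higher in sub2del, 3.02 ± 0.36 (SE, limma adjusted p = 0.000607). WT replicate 1 stood some way above the other WT arrays. YKR104W read 2103 and 2943 in sub2del, against 203, 301 and 299 in hpr1del, 2370 and 2374 in tho2del and 507, 881 and 400.4 in WT. The gene was 8.96-fold higher, 3.16 ± 0.21 (SE, limma adjusted p = 8.67e-05). FPK1, which encodes a kinase that activates phospholipid flippases, read 2600 and 3765 in sub2del, against 593, 566 and 534 in hpr1del, 3033 and 3022 in tho2del and 966, 1352 and 729.9 in WT. FPK1 was 5.42-fold higher, 2.44 ± 0.15 (SE, limma adjusted p = 7.3e-05). For all 3 the tho2del arrays lay at the level of sub2del and apart from hpr1del.

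TDA4 and ELO1 were higher in sub2del than in any other strain. TDA4 read 5459 and 5982 in sub2del, against 900.3, 1006 and 1010 in hpr1del, 2560 and 2531 in tho2del and 1125, 818 and 996 in WT. Its level was 5.81-fold above hpr1del (2.54 ± 0.076 SE, limma adjusted p = 2.04e-05), and it stood above tho2del by 1.16 (limma adjusted p = 0.000206) on the log2 scale. ELO1, an elongase of medium-chain fatty acids, read 12402 and 12738 in sub2del, against 2514, 2635 and 2769 in hpr1del, 6525 and 6804 in tho2del and 4319, 3144 and 3384 in WT. ELO1 was 4.74-fold above hpr1del (2.25 ± 0.061 SE, limma adjusted p = 2.04e-05), and it stood above tho2del by 0.91 (limma adjusted p = 0.00021). CHM7, which encodes an ESCRT-related protein of nuclear envelope surveillance, read 5562 and 5330 in sub2del, against 1348, 1367 and 1513 in hpr1del, 2894 and 3455 in tho2del and 339, 427 and 385 in WT. Its levels stood in the order sub2del, tho2del, hpr1del and WT with no overlap between neighbours, and it was 3.84-fold higher in sub2del than in hpr1del (1.94 ± 0.069 SE, limma adjusted p = 2.39e-05). ARO10, the decarboxylase of the Ehrlich pathway that turns amino acids into fusel alcohols, read 5885 and 5947 in sub2del, against 1441, 1222 and 1153 in hpr1del, 3893 and 4050 in tho2del and 496, 456 and 401 in WT. It had the same order of strains and was 4.63-fold higher in sub2del (2.21 ± 0.099 SE, limma adjusted p = 3.36e-05).

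A further group was high in sub2del and tho2del, with hpr1del overlapping WT or below it. PIG1, a putative targeting subunit of the phosphatase that acts on glycogen synthase, read 1394 and 1512 in sub2del, against 369, 311 and 297 in hpr1del, 1347 and 1567 in tho2del and 284, 333 and 230.2 in WT. The gene was 4.31-fold higher in sub2del (2.11 ± 0.10 SE, limma adjusted p = 3.71e-05). GEP4, a phosphatase of cardiolipin synthesis in mitochondria, read 3119 and 3357 in sub2del, against 809.9, 739.5 and 682 in hpr1del, 2762 and 3191 in tho2del and 880.1, 740 and 799 in WT (4.29-fold, 2.10 ± 0.084 SE, limma adjusted p = 2.75e-05). RIM4, an RNA-binding protein known from meiosis, read 930.1 and 1389 in sub2del, against 275, 280.1 and 226 in hpr1del, 1064 and 1533 in tho2del and 202, 279.5 and 197 in WT (4.19-fold, 2.07 ± 0.18 SE, limma adjusted p = 0.000191). SIZ1, a SUMO ligase gene, was 3.77-fold higher (1029 and 1305 in sub2del, against 320.1, 289 and 279.8 in hpr1del) and YML082W 3.85-fold (2003 and 2451 in sub2del, against 614, 564 and 519 in hpr1del). In each of these 5 genes the difference from tho2del was not called, with log2 values from -0.17 to 0.12.

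Dim genes complete the 15 highest. YOR072W-B read 230.2 and 388 in sub2del, against 54.7, 45.9 and 31 in hpr1del, RRG8, a gene for upkeep of mitochondrial DNA, 305 and 477 in sub2del, against 71.5, 63.5 and 63 in hpr1del, and SET6 182 and 342 in sub2del, against 40.3, 35.3 and 51.3 in hpr1del. They were 5.34-fold, 4.86-fold and 4.6-fold higher on the scale with the offset of 16, which understates changes of dim genes. Their sub2del replicates lay further apart than those of brighter genes.

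**Figure D2:**
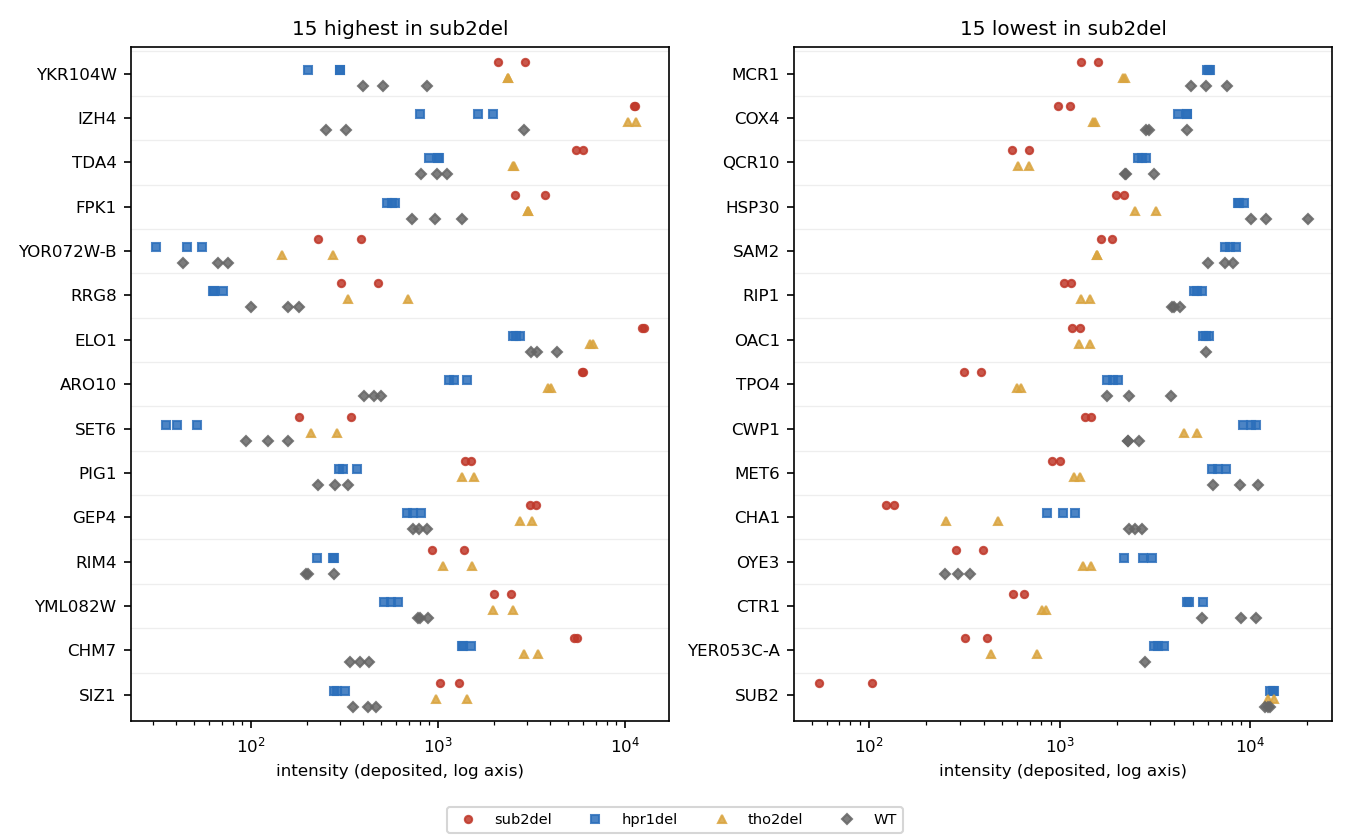
Deposited intensity (log axis) on every array for the 15 named genes highest (left) and the 15 lowest (right) in sub2del relative to hpr1del. Within each gene sub2del is drawn on top, then hpr1del, tho2del and WT. The tho2del points lie by the sub2del points for many of these genes, whereas OYE3 and CWP1 are low in both sub2del and WT and highest in hpr1del.

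After SUB2 and YER053C-A, CTR1 had the lowest value among the named genes. CTR1, the high-affinity copper transporter, read 649 and 571 in sub2del, against 5667, 4759 and 4656 in hpr1del, 849 and 814 in tho2del and 5624, 10759 and 8990 in WT. It was 8.04-fold lower in sub2del, -3.01 ± 0.11 (SE, limma adjusted p = 2.39e-05), and the tho2del arrays were nearly as low. MET6, methionine synthase, read 918 and 1001 in sub2del, against 7502, 6822 and 6302 in hpr1del, 1189 and 1274 in tho2del and 6426, 10937 and 8854 in WT. MET6 was 7.05-fold lower (-2.82 ± 0.088 SE, limma adjusted p = 2.04e-05). SAM2, S-adenosylmethionine synthetase, read 1660 and 1892 in sub2del, against 8454, 7842 and 7366 in hpr1del, 1571 and 1566 in tho2del and 5998, 7406 and 8098 in WT. The gene was 4.41-fold lower (-2.14 ± 0.086 SE, limma adjusted p = 2.75e-05). In both methionine genes hpr1del overlapped WT, while sub2del and tho2del lay far below.

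For OYE3 and CWP1 hpr1del stood far above WT. OYE3, an NADPH oxidoreductase, read 399 and 286 in sub2del, against 2185, 2726 and 3051 in hpr1del, 1330 and 1471 in tho2del and 339, 293 and 251 in WT. OYE3 was 7.47-fold lower in sub2del (-2.90 ± 0.18 SE, limma adjusted p = 7.3e-05), and sub2del overlapped WT. CWP1, a cell wall mannoprotein, read 1363 and 1469 in sub2del, against 10776, 10131 and 9202 in hpr1del, 5237 and 4517 in tho2del and 2294, 2280 and 2604 in WT. Its level was 7.01-fold lower in sub2del (-2.81 ± 0.082 SE, limma adjusted p = 2.04e-05). Here sub2del was below WT as well. CHA1, the serine and threonine deaminase, had its highest level in WT and read 136 and 123 in sub2del, against 1039, 1202 and 856 in hpr1del, 474 and 255 in tho2del and 2711, 2481 and 2319 in WT. CHA1 was 7.13-fold lower in sub2del than in hpr1del (-2.83 ± 0.14 SE, limma adjusted p = 3.87e-05).

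Of the other genes among the 15 lowest, YER053C-A read 416 and 319 in sub2del, against 3115, 3543 and 3304 in hpr1del (8.77-fold lower). TPO4, a polyamine exporter gene, read 316 and 385 in sub2del, against 1908, 1766 and 2022 in hpr1del (5.24-fold). OAC1, a mitochondrial oxaloacetate and sulfate carrier, read 1283 and 1158 in sub2del, against 6105, 5661 and 5861 in hpr1del (4.77-fold lower) and HSP30, a plasma membrane heat shock protein, 2168 and 1972 in sub2del, against 8603, 8758 and 9265 in hpr1del (4.26-fold). MCR1, a mitochondrial reductase of cytochrome b5, read 1583 and 1291 in sub2del, against 6059, 6134 and 5974 in hpr1del (4.2-fold lower). RIP1, QCR10 and COX4, subunits of respiratory complexes, are described below.

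The other strains place these differences. Of 153 probe sets at least 2-fold higher in sub2del that also had a tho2del value, tho2del was nearer to sub2del in 100 and nearer to hpr1del in 53. Their median log2 differences were 1.25 for sub2del minus hpr1del and 0.97 for tho2del minus hpr1del, 1.14 for sub2del minus WT and -0.24 for hpr1del minus WT. Of 249 at least 2-fold lower, tho2del was nearer to sub2del in 175 and nearer to hpr1del in 74. Their medians were -1.28 for sub2del minus hpr1del and -0.88 for tho2del minus hpr1del, -1.34 for sub2del minus WT and 0.0093 for hpr1del minus WT. These differences share arrays and are given as values side by side. How often tho2del lay nearer to sub2del over all tested probe sets was not counted. The tho2del arrays are in the same class of many empty cells as the sub2del arrays, so nearness to sub2del and that class cannot be told apart.

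Of the 66 gene lists examined, 4 of the respiratory chain and its entry had the lowest medians. They were the NADH and substrate dehydrogenases (-1.50, 4 of 5 tested lower, and 3 of 3 with the class block), complex III, complex IV with cytochrome c, and complex II (-0.95, 3 of 3 tested lower). Complex V was not among these 4. The chain passes electrons from NADH and succinate through complexes II, III and IV to oxygen, and complex V makes ATP from the resulting proton gradient. In glucose medium yeast keeps most of these genes at a reduced level. Of complex III all 9 members were tested and 9 of 9 were lower in sub2del (median -1.45, from -2.25 to -0.31). Of complex IV with cytochrome c 11 of 11 were lower (median -1.43; with the class block 8 of 10 lower and 0 higher) and of complex V 17 of 17 (median -0.81; with the class block 12 of 17 lower and 0 higher). Against WT the medians were -1.23, -0.80 and -0.31 in sub2del and 0.46, 0.61 and 0.49 in hpr1del, so the strains stood on opposite sides of WT. WT replicate 2 differed from the other WT arrays by only -0.04, -0.03 and -0.02 in these groups, and with the class block the medians were -1.66, -1.29 and -0.84.

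RIP1, the Rieske iron-sulfur subunit of complex III, read 1152 and 1054 in sub2del, against 5575, 5243 and 5051 in hpr1del, 1453 and 1289 in tho2del and 4288, 3983 and 3887 in WT. It was 4.74-fold lower in sub2del (-2.25 ± 0.069 SE, limma adjusted p = 2.04e-05). CYT1, cytochrome c1, read 1343 and 1170 in sub2del, against 5085, 4925 and 4826 in hpr1del, 1620 and 1830 in tho2del and 3703, 3354 and 3159 in WT. The gene was 3.91-fold lower (-1.97 ± 0.073 SE, limma adjusted p = 2.6e-05). QCR10 read 689 and 566 in sub2del, against 2581, 2837 and 2706 in hpr1del, 4.25-fold lower, QCR9 1849 and 1661 in sub2del, against 5625, 5743 and 5866 in hpr1del, 3.26-fold lower, and QCR7 4436 and 4180 in sub2del, against 11270, 11738 and 11908 in hpr1del, 2.7-fold lower. For each of these 5 subunits sub2del and tho2del lay below every hpr1del and WT array. The core proteins were lower by less (-0.82 for QCR2 and -0.68 for COR1).

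In complex IV, COX4 read 1133 and 979.5 in sub2del, against 4183, 4686 and 4639 in hpr1del, 1492 and 1543 in tho2del and 4638, 2853 and 2950 in WT. COX4 was 4.22-fold lower in sub2del (-2.08 ± 0.086 SE, limma adjusted p = 3e-05). COX7 read 1762 and 1656 in sub2del, against 5266, 5981 and 5927 in hpr1del, 2529 and 2816 in tho2del and 3305, 3037 and 2674 in WT. Its level was 3.32-fold lower (-1.73 ± 0.075 SE, limma adjusted p = 3.23e-05). COX8 read 1676 and 1582 in sub2del, against 4385, 4294 and 4484 in hpr1del and COX12 2478 and 2239 in sub2del, against 6288, 6431 and 6332 in hpr1del, 2.68-fold and 2.69-fold lower. Of the paired subunit genes that respond to oxygen, COX5A, used with oxygen, differed by -1.78 and COX5B, used without it, by -0.40. Of the cytochrome c genes CYC1 differed by -1.67 and CYC7 by -1.50, all called. In complex V, INH1, an inhibitor of ATP hydrolysis, read 678 and 599 in sub2del, against 1903, 2034 and 2036 in hpr1del, 607 and 666 in tho2del and 870.1, 522 and 409 in WT. INH1 was 3.07-fold lower (-1.62 ± 0.072 SE, limma adjusted p = 3.36e-05). ATP20 read 2026 and 2166 in sub2del, against 4957, 5270 and 5281 in hpr1del (2.46-fold lower), ATP19 1979 and 1985 in sub2del, against 4447, 4696 and 4635 in hpr1del (2.31-fold) and ATP16 4730 and 4373 in sub2del, against 9288, 9343 and 9056 in hpr1del (2.02-fold). The subunit genes ATP1 and ATP2 were lower by less, with -0.28 for ATP1 and -0.40 for ATP2.

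At the entry to the chain, NDI1, the internal NADH dehydrogenase of yeast, read 457 and 505 in sub2del, against 1875, 1938 and 1971 in hpr1del, 464 and 564 in tho2del and 2480, 1232 and 1209 in WT. The gene was 3.92-fold lower in sub2del (-1.97 ± 0.063 SE, limma adjusted p = 2.04e-05). The external dehydrogenase gene NDE1 read 3609 and 3404 in sub2del, against 10595, 9754 and 9571 in hpr1del, 3730 and 3357 in tho2del and 7265, 6262 and 6130 in WT. NDE1 was 2.83-fold lower (-1.50 ± 0.066 SE, limma adjusted p = 3.36e-05). CYB2, which passes electrons from lactate to cytochrome c, read 343 and 351 in sub2del, against 1049, 1061 and 1050 in hpr1del (2.94-fold lower). DLD1, a D-lactate dehydrogenase, read 2636 and 2220 in sub2del, against 3403, 3306 and 3358 in hpr1del (1.39-fold lower). NDE2, beside SUB2, was not called, and GUT2 was untested with 1 sub2del value. Of succinate dehydrogenase, SDH2 read 1919 and 1837 in sub2del, against 3820, 3887 and 4388 in hpr1del (-1.09 ± 0.076 SE, limma adjusted p = 9.91e-05), SDH4 2052 and 1871 in sub2del, against 3678, 4013 and 3719 in hpr1del (-0.95 ± 0.069 SE, limma adjusted p = 0.000112) and SDH3 2652 and 2702 in sub2del, against 3085, 3495 and 3362 in hpr1del (-0.30 ± 0.068 SE, limma adjusted p = 0.00809). SDH1 had 1 sub2del value, 2955, below its 3 hpr1del values, and was not tested. For SDH2, SDH3 and SDH4 the WT arrays differed among themselves in the same direction (median WT difference -0.35) and none was called with the class block, where the differences were -0.74, -0.03 and -0.46. In WT, SDH2 read 4327, 2375 and 2124 and SDH4 read 4247, 2199 and 2267. For both genes WT replicate 3, with few empty cells, lay near replicate 2, and replicate 1 stood apart.

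Among regulators, HAP4, the activating subunit of the complex that switches on respiratory genes, read 822 and 884 in sub2del, against 3019, 3069 and 2894 in hpr1del, 1167 and 1318 in tho2del and 6817, 5505 and 5615 in WT. It was 3.47-fold lower in sub2del than in hpr1del (-1.79 ± 0.059 SE, limma adjusted p = 2.04e-05). WT was highest of all. The DNA-binding subunits were lower for HAP2 (-0.68 ± 0.11) and HAP5 (-0.71 ± 0.061) and higher for HAP3 (0.48 ± 0.13). HAP3 (0.13, limma adjusted p = 0.74) was not called with the class block. ROX1, a repressor of genes used without oxygen, read 1130 and 1095 in sub2del, against 2698, 2539 and 2241 in hpr1del, 1344 and 1435 in tho2del and 1498, 2923 and 2757 in WT. Its level was 2.22-fold lower (-1.15 ± 0.087 SE, limma adjusted p = 0.000125). HAP1, the activator that senses heme, read 1343 and 1338 in sub2del, against 1083, 1203 and 1257 in hpr1del and was not called (limma adjusted p = 0.0688).

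Other mitochondrial groups had mostly lower calls too. Of assembly factors of the complexes, 16 of 23 were lower in sub2del and 4 higher (median -0.61; with the class block 15 of 23 lower and 2 higher), with COX11 at 364 and 435 in sub2del, against 905, 1008 and 1002 in hpr1del (2.38-fold lower) and COX14 at 948 and 885 in sub2del, against 1919, 1913 and 1998 in hpr1del (2.1-fold). The higher ones were COX16, SCO1, SCO2 and PET117, at 0.79, 0.61, 0.39 and 0.29. Of the citric acid cycle 11 of 14 were lower and 1 higher (median -0.57; with the class block 7 of 13 lower and 0 higher). KGD1, of the oxoglutarate dehydrogenase complex, read 1498 and 1454 in sub2del, against 3080, 3106 and 3149 in hpr1del (2.1-fold lower). FUM1, fumarase, read 4185 and 4287 in sub2del, against 8093, 7898 and 7804 in hpr1del (1.87-fold). Of mitochondrial ribosomal proteins 56 of 65 were lower and 6 higher, with a median of -0.49 and none past 2-fold. RSM10 read 1789 and 1763 in sub2del, against 3413, 3326 and 3490 in hpr1del (1.91-fold lower). MRPL38 differed by -0.87 ± 0.061. The medians of these 3 groups with the class block were -0.71, -0.71 and -0.58. Against WT the mitochondrial ribosome had medians of -0.71 in sub2del and -0.22 in hpr1del.

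**Figure D3:**
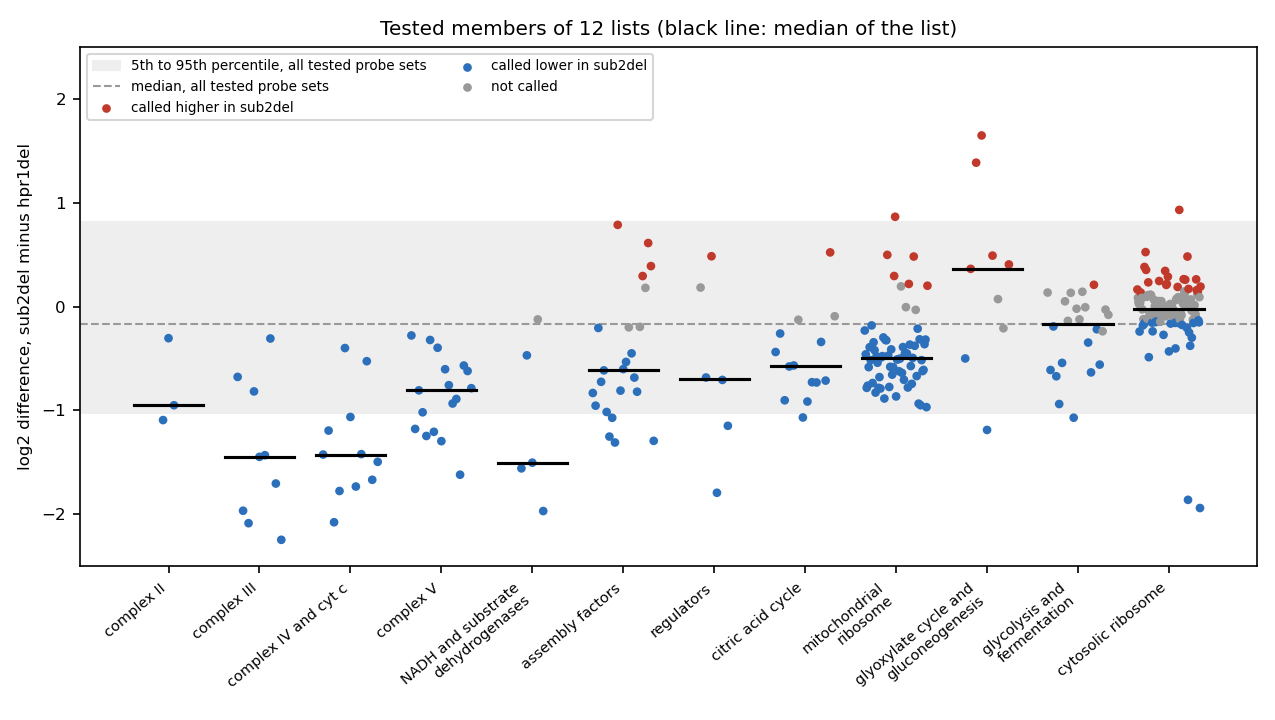
Log2 difference (sub2del minus hpr1del) of every tested member of 12 lists, coloured by call, with a black line at each list's median, over the 5th to 95th percentile (grey) and the median (dashed) of all tested probe sets. All tested members of complexes II to V lie below the dashed median, and the cytosolic ribosome is centred near 0.

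Some genes of neighbouring carbon pathways were higher. CIT2, the peroxisomal citrate synthase, read 9501 and 8735 in sub2del, against 3610, 3327 and 3494 in hpr1del, 8732 and 9333 in tho2del and 6794, 9162 and 6522 in WT. It was 2.61-fold higher in sub2del (1.39 ± 0.065 SE, limma adjusted p = 3.64e-05), with sub2del and tho2del in the upper part of the WT range or above it and hpr1del below it. FBP1, the gluconeogenic fructose bisphosphatase, read 246 and 366 in sub2del, against 73.4, 98.8 and 84.1 in hpr1del, 268 and 241 in tho2del and 79.4, 102 and 90.8 in WT. FBP1 was 3.13-fold higher (1.65 ± 0.18 SE, limma adjusted p = 0.000427). Isocitrate lyase, ICL1, was lower, at a log2 difference of -1.19, and of the whole list of glyoxylate cycle and gluconeogenesis 5 of 9 were higher and 2 lower (median 0.36; with the class block 2 of 9 lower and 2 higher, median 0.16). MDH2, a cytosolic malate dehydrogenase, was higher by 0.49 ± 0.079, but -0.48 with the class block (limma adjusted p = 0.0238), and its WT replicate 2 read 4534 against 2311 and 2301. In heme synthesis, HEM13, an oxidase that is induced when oxygen is short, read 11964 and 11687 in sub2del, against 3883, 4416 and 5173 in hpr1del, 12948 and 13354 in tho2del and 10541, 2419 and 2956 in WT. Its level was 2.65-fold higher in sub2del (1.40 ± 0.12 SE, limma adjusted p = 0.00018). WT replicate 1 read near sub2del and the other WT arrays below hpr1del, so the WT level of HEM13 is not settled here. Of the other tested heme genes 4 were lower, among them HEM12 (-0.54 ± 0.059), HEM2 (-0.34 ± 0.053) and HEM4 (-0.37 ± 0.08), and the list's median was -0.24.

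Reserve carbohydrate and stress genes were mostly lower in sub2del on the 5 arrays, and fewer of them were called with the class block. That loss was general. Over all probe sets, 1598 of 3160 calls that the block could test were called again in the same direction. Relative to the mean of the 5 arrays, WT replicates 1, 2 and 3 had list medians of 0.72, 0.014 and -0.11 for glycogen and trehalose. For general stress genes they were 0.19, -0.22 and -0.37. In both lists WT replicate 2 thus lay between replicates 1 and 3, which both have few empty cells. Glycogen and trehalose are storage sugars that yeast builds up as growth slows, and Msn2 and Msn4 switch on a broad stress programme. Of 18 tested genes of glycogen and trehalose 15 were lower and 1, PIG1, higher (median -0.81; with the class block 7 of 18 lower and 1 higher). GPH1, glycogen phosphorylase, read 1423 and 1316 in sub2del, against 4560, 4907 and 4683 in hpr1del, 2227 and 2002 in tho2del and 1221 and 976 (1 cell empty) in WT. GPH1 was 3.42-fold lower in sub2del (-1.77 ± 0.063 SE, limma adjusted p = 2.39e-05). GSY1, glycogen synthase, read 809 and 770 in sub2del, against 1994, 2085 and 2238 in hpr1del, 1376 and 1419 in tho2del and 1444 and 2054 (1 cell empty) in WT. Its level was 2.63-fold lower (-1.40 ± 0.067 SE, limma adjusted p = 3.72e-05). TSL1, a subunit of trehalose synthase, read 1024 and 932 in sub2del, against 2268, 2333 and 2488 in hpr1del, 1192 and 1364 in tho2del and 9209, 2805 and 2775 in WT. TSL1 was 2.39-fold lower (-1.26 ± 0.069 SE, limma adjusted p = 5.19e-05), with WT replicate 1 far above all other arrays. With the class block the list's median was -0.45 and TSL1 was not called (-0.41, limma adjusted p = 0.657).

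Of 35 general stress genes 31 were lower and 3 higher (median -0.76; with the class block 18 of 34 lower and 1 higher). CTT1, cytosolic catalase, read 483 and 469 in sub2del, against 1795, 1809 and 1673 in hpr1del, 626 and 711 in tho2del and 2519, 711 and 1026 in WT. The gene was 3.61-fold lower (-1.85 ± 0.058 SE, limma adjusted p = 2.04e-05). The WT arrays lay on both sides of hpr1del, and CTT1 was not called with the class block (-0.69, limma adjusted p = 0.321). SPI1, a cell wall stress protein, read 921 and 1007 in sub2del, against 2191, 2276 and 2412 in hpr1del (2.36-fold lower). GRX2, a glutaredoxin, read 2610 and 2441 in sub2del, against 5316, 5368 and 5687 in hpr1del (2.15-fold lower). The 3 higher genes encode chaperones, SSA3 (1.36), SSA4 (0.74) and HSP26 (0.66). Against WT the list had medians of -0.41 in sub2del and 0.37 in hpr1del, and with the class block -0.66.

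Heat shock chaperones as a list had a median near 0 (median 0.02, 5 of 20 lower and 6 higher; with the class block 2 of 18 lower and 2 higher, median -0.06). BTN2, which sorts misfolded proteins, read 8831 and 7519 in sub2del, against 3250, 4115 and 4438 in hpr1del and was 2.08-fold higher in sub2del (1.06 ± 0.14 SE, limma adjusted p = 0.00107). HSP104, the disaggregase, read 7208 and 6470 in sub2del, against 10156, 10607 and 10620 in hpr1del (-0.61 ± 0.066 SE, limma adjusted p = 0.000404). HSF1, the heat shock factor, was higher by 0.46 ± 0.081, and KAR2, the chaperone of the endoplasmic reticulum, by 0.36 ± 0.064. With the class block HSP104 (-0.29, limma adjusted p = 0.502) and HSF1 (0.01, limma adjusted p = 0.972) were not called. Of 18 oxidoreductase and oxidative stress genes 11 were lower and 3 higher (median -0.31; with the class block 10 of 17 lower and 1 higher, median -0.67). GTT2, a glutathione transferase, read 307 and 347 in sub2del, against 745, 725 and 701 in hpr1del (2.16-fold lower). The aryl alcohol dehydrogenase relatives AAD4 and AAD6 were 2.91-fold and 3.28-fold lower, and the AAD4 probe set may also pick up related genes.

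Ergosterol, the sterol of yeast membranes, is made by a long pathway whose late steps need oxygen and heme. Of 25 tested genes 20 were lower in sub2del and 1 higher (median -0.68; with the class block 19 of 25 lower and 1 higher). ERG26, a dehydrogenase of sterol demethylation, read 1203 and 1316 in sub2del, against 3738, 3458 and 3471 in hpr1del, 1598 and 1505 in tho2del and 6517, 8023 and 8444 in WT. ERG26 was 2.8-fold lower (-1.49 ± 0.067 SE, limma adjusted p = 3.36e-05), with WT highest. MVD1, of the mevalonate pathway, read 2902 and 2896 in sub2del, against 7199, 6589 and 6753 in hpr1del, 2564 and 2392 in tho2del and 5691, 7189 and 7528 in WT. Its level was 2.35-fold lower (-1.24 ± 0.059 SE, limma adjusted p = 3.71e-05). ERG12, mevalonate kinase, read 1237 and 1341 in sub2del, against 2934, 2730 and 2629 in hpr1del (2.13-fold lower) and ERG24 2312 and 2284 in sub2del, against 4443, 4089 and 4258 in hpr1del (1.85-fold lower). HMG1 and HMG2, isozymes of the enzyme that sets the pathway's rate, differed in opposite directions, at -1.15 and 0.97. Against WT the list had medians of -0.98 in sub2del and -0.42 in hpr1del, and with the class block the median was -0.79.

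Other lipid genes had calls in both directions, to be read beside 46.9% lower and 21.6% higher over all tested probe sets. Of 13 genes of fatty acid and phospholipid synthesis 6 were lower and 6 higher (median 0.01; with the class block 1 of 13 lower and 3 higher, median 0.06). FAA1, the main acyl-CoA synthetase, read 1822 and 1645 in sub2del, against 6825, 6660 and 6132 in hpr1del, 2228 and 2318 in tho2del and 6403, 7903 and 7089 in WT. FAA1 was 3.75-fold lower (-1.91 ± 0.074 SE, limma adjusted p = 2.74e-05), opposite to ELO1. OLE1, the desaturase, was higher at 18986 and 19714 in sub2del, against 12089, 13453 and 13362 in hpr1del (0.58 ± 0.067), and CHO1, phosphatidylserine synthase, lower at 3643 and 2925 in sub2del, against 6553, 5793 and 5949 in hpr1del (-0.90 ± 0.11). Sphingolipid genes were 8 of 20 lower and 4 higher, median -0.10 (with the class block 2 of 19 lower and 4 higher, median 0.14). Of them the ceramidases YPC1 and YDC1 were lower, at log2 differences of -1.32 ± 0.073 and -0.92 ± 0.069, CSG2 was higher by 0.70 ± 0.065, and ORM2, an inhibitor of sphingolipid synthesis, was lower, at a log2 difference of -0.49 ± 0.055. Not called with the class block were CHO1 (-0.56, limma adjusted p = 0.0716), YDC1 (-0.55, limma adjusted p = 0.158) and ORM2 (-0.03, limma adjusted p = 0.938). Drug and sphingoid base transporters were 6 of 13 lower and 4 higher, median -0.19 (with the class block 5 of 13 lower and 2 higher, median -0.28). PDR12, a weak acid exporter, read 1363 and 1375 in sub2del, against 2788, 3099 and 2957 in hpr1del (2.14-fold lower), PDR15 329.9 and 293 in sub2del, against 563, 546 and 614 in hpr1del (1.8-fold lower). SNQ2 read 5996 and 5798 in sub2del, against 3664, 3373 and 3234 in hpr1del (1.72-fold higher). For these transporters both strains lay far below WT (medians of -1.42 in sub2del and -1.45 in hpr1del).

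Some iron and copper uptake genes differed widely between the strains. Of the tested members of the reductive uptake list 68.4% were called, beside 68.5% of all tested probe sets. Cells reduce both metals at the surface and import them by high-affinity carriers under the activators Aft1 and Mac1, and the iron oxidase Fet3 needs copper. Of 19 genes of reductive uptake 12 were lower in sub2del and 1 higher (median -0.50; with the class block 8 of 16 lower and 1 higher, median -0.64), with CTR1 the lowest. FRE1, a metal reductase, read 788 and 786 in sub2del, against 3971, 3124 and 3003 in hpr1del, 1111 and 1246 in tho2del and 7334, 11017 and 9771 in WT. Its level was 4.18-fold lower (-2.06 ± 0.12 SE, limma adjusted p = 6.74e-05). FRE7, a copper-regulated reductase, read 309 and 348 in sub2del, against 1369, 1134 and 1071 in hpr1del, 398 and 334 in tho2del and 959.5 and 2366 (1 cell empty) in WT. FRE7 was 3.49-fold lower (-1.80 ± 0.12 SE, limma adjusted p = 7.65e-05). FET3 differed by -1.93 and its partner, the permease FTR1, by -0.60. AFT1 was 1.79-fold lower (661 and 633 in sub2del, against 1263, 1151 and 1103 in hpr1del) and MAC1 differed by -0.63.

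The medians of siderophore and FIT genes lay closer between the mutants than either did to WT. Of the tested members 62.5% were called, beside 68.5% of all tested probe sets. Of 8 tested genes 5 were lower in sub2del and 0 higher (median -0.34; with the class block 5 of 6 lower and 0 higher), against medians from WT of -2.51 in sub2del and -1.90 in hpr1del. FIT2, a cell wall mannoprotein that helps to take up iron, read 429.6 and 559 in sub2del, against 1188, 862 and 800.4 in hpr1del, 793 and 524 in tho2del and 7350, 12836 and 5444 in WT (-0.91 ± 0.19 SE, limma adjusted p = 0.00614). FIT3 read 1209 and 1216 in sub2del, against 1549, 1507 and 1482 in hpr1del, 1327 and 1254 in tho2del and 8693, 15573 and 8248 in WT (-0.32 ± 0.05 SE, limma adjusted p = 0.00204). ARN2 and ENB1, siderophore transporters, differed by -0.32 ± 0.09 and -0.55 ± 0.17. WT replicate 2 was higher than the other WT arrays in this list by a median of 0.74, the largest of the 66 lists, and the blocked median was -1.12. Of other iron regulon genes 5 of 8 were lower and 2 higher (median -0.46; with the class block 4 of 7 lower and 0 higher, median -0.78), among them the iron-sulfur scaffold genes ISU2 (809.8 and 689.5 in sub2del, against 2278, 1983 and 1770 in hpr1del, 2.64-fold lower) and ISU1 (-0.54 ± 0.063), the mitochondrial iron carrier MRS4 (-0.81 ± 0.10) and the dim mRNA decay factor TIS11 (-0.66 ± 0.12).

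Among the amino acid groups, methionine, serine and glycine, and branched-chain genes had mostly lower calls in sub2del. Of 22 methionine and sulfate assimilation genes 16 were lower and 2 higher (median -0.45; with the class block 9 of 17 lower and 0 higher, median -0.63), with 7 more untested. Beside MET6 and SAM2, MET16, of sulfate reduction, read 450.3 and 419 in sub2del, against 1000, 989 and 1008 in hpr1del, 769 and 795 in tho2del and 1338 and 1780 (1 cell empty) in WT (2.25-fold lower) and HOM2 5808 and 6247 in sub2del, against 12766, 11816 and 12004 in hpr1del (2.02-fold lower). Of the serine, glycine, threonine and glutamate group 13 of 18 were lower and 2 higher (median -0.40; with the class block 11 of 18 lower and 1 higher, median -0.64). GDH1, the glutamate dehydrogenase that assimilates ammonium, read 7412 and 6569 in sub2del, against 16565, 16518 and 15460 in hpr1del, 10754 and 9998 in tho2del and 13620, 15222 and 13674 in WT. Its level was 2.31-fold lower (-1.21 ± 0.072 SE, limma adjusted p = 6.68e-05). GLT1, glutamate synthase, was 1.73-fold lower and GLY1, threonine aldolase, 1.58-fold. Branched-chain genes were 7 of 9 lower and 1 higher, median -0.41 (with the class block 4 of 6 lower and 0 higher, median -0.70), and BAT1, the mitochondrial transaminase, read 6200 and 6313 in sub2del, against 14859, 14685 and 14451 in hpr1del, 6766 and 6595 in tho2del and 14310, 18238 and 16579 in WT. BAT1 was 2.34-fold lower (-1.23 ± 0.049 SE, limma adjusted p = 2.75e-05). LEU4, LEU1 and ILV2 were 1.78-fold, 2.05-fold and 1.45-fold lower.

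Of the other amino acid groups, histidine genes were 4 of 5 lower and 1 higher, median -0.53 (with the class block 1 of 2 lower and 0 higher, median -0.80). HIS4 read 1248 and 1595 in sub2del, against 3499, 4136 and 3986 in hpr1del (-1.44 ± 0.12 SE, limma adjusted p = 0.000183) with no WT value, HIS1 and HIS5 were lower, at log2 differences of -0.53 ± 0.052 and -0.47 ± 0.076, HIS2 by -0.72 ± 0.13, and HIS7 was higher by 0.36 ± 0.059 (-0.49 with the class block), while HIS6 was untested with 1 sub2del value. Lysine genes were 6 of 9 lower and 1 higher, median -0.20 (with the class block 1 of 3 lower and 0 higher, median -0.57), from LYS12 (-0.42 ± 0.059), LYS21 (-0.37 ± 0.066) and LYS1 (-0.35 ± 0.089) to LYS2 (0.30 ± 0.059). Arginine genes were 2 of 5 lower and 1 higher, median -0.01 (with the class block 0 of 2 lower and 0 higher, median -0.05), with ARG4 at 2072 and 2322 in sub2del, against 4409, 4809 and 4659 in hpr1del (-1.07 ± 0.072), ARG7 at -0.43 ± 0.066 and ARG1 at 5871 and 5678 in sub2del, against 3613, 4697 and 3614 in hpr1del (0.55 ± 0.12). Aromatic genes were 6 of 11 lower and 1 higher, median -0.21 (with the class block 3 of 7 lower and 0 higher, median -0.47), among them ARO3 (-0.57 ± 0.048), ARO1 (-0.53 ± 0.06) and ARO8 (-0.47 ± 0.056), and TYR1 was higher (0.65 ± 0.052). In all 4 groups both mutants stood below WT by medians from -1.72 to -0.70 (sub2del and hpr1del each set against WT), and WT replicate 2 was above the other WT arrays by 0.62, 0.40, 0.32 and 0.31. Several members had 1 or no WT value, so the class block could test only 2, 3, 2 and 7 of them. Of the genes named, ARG1 (0.26, limma adjusted p = 0.404), TYR1 (0.33, limma adjusted p = 0.227) and HIS7 (-0.49, limma adjusted p = 0.3) were not called with it.

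Nitrogen catabolite genes, which are switched on when good nitrogen sources run short, were lower in 14 of 20 cases and higher in 2 (median -0.64; with the class block 10 of 17 lower and 0 higher, median -1.11). PUT1, proline oxidase, read 1373 and 1493 in sub2del, against 4395, 4285 and 4034 in hpr1del, 2532 and 2814 in tho2del and 1711, 1222 and 1636 in WT. Its level was 2.94-fold lower in sub2del (-1.55 ± 0.066 SE, limma adjusted p = 3.01e-05), and sub2del lay within the WT range with hpr1del above it. DAL80, a repressor of these genes, read 186 and 162 in sub2del, against 590.4, 602 and 624 in hpr1del, 220.1 and 273 in tho2del and 434, 564 and 432 in WT. DAL80 was 3.27-fold lower (-1.71 ± 0.071 SE, limma adjusted p = 3e-05). The ammonium permease gene MEP1 read 353 and 370 in sub2del, against 865, 892 and 904 in hpr1del (2.39-fold lower). CAR2, of arginine breakdown, read 354 and 378 in sub2del, against 1083, 969 and 970.2 in hpr1del (2.67-fold lower).

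Amino acid permeases were 8 of 18 lower and 8 higher, median -0.10 (with the class block 5 of 17 lower and 2 higher, median -0.06). Over all tested probe sets 46.9% were lower and 21.6% higher. PUT4, the proline permease, read 98.3 and 78.1 in sub2del, against 439, 455 and 369 in hpr1del, 82.7 and 164 in tho2del and 1146, 1372 and 1159 in WT. Its level was 4.2-fold lower (-2.07 ± 0.12 SE, limma adjusted p = 6.06e-05), with both sub2del and tho2del dim. TAT1, which carries tyrosine and branched-chain amino acids, read 9882 and 9899 in sub2del, against 4126, 4077 and 4234 in hpr1del, 5591 and 5968 in tho2del and 6648, 6143 and 5874 in WT. TAT1 was 2.38-fold higher in sub2del (1.25 ± 0.05 SE, limma adjusted p = 2.75e-05) and above every other array. AGP1 was 2.24-fold lower and the polyamine transporter TPO1, kept in this list, 2.55-fold. In the Ehrlich pathway, ARO10 was the only higher member, and ARO80, its activator, was lower at 608 and 422 in sub2del, against 982, 903 and 886 in hpr1del (-0.84 ± 0.15), as was ADH6 (-0.26 ± 0.071), with 3 of 6 not called. ADH6 (-0.27, limma adjusted p = 0.142) was not called with the class block.

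Purine and one-carbon genes were lower in 20 of 24 cases and higher in 2 (median -0.48; with the class block 17 of 22 lower and 0 higher, median -0.74). GCV1, of the glycine decarboxylase complex, read 789 and 787 in sub2del, against 3509, 3493 and 3041 in hpr1del, 1384 and 1337 in tho2del and 890.1, 4083 and 2425 in WT. It was 4.18-fold lower in sub2del (-2.06 ± 0.078 SE, limma adjusted p = 2.6e-05). WT replicate 1 lay at the sub2del level and the others near hpr1del. GCV2 read 1216 and 1290 in sub2del, against 3849, 3451 and 3350 in hpr1del, 1368 and 1258 in tho2del and 1179, 3837 and 2835 in WT. Its level was 2.81-fold lower (-1.49 ± 0.076 SE, limma adjusted p = 4.33e-05), with the same split of WT. ADE17, of the last steps of purine synthesis, read 471 and 570.3 in sub2del, against 2094, 2254 and 1951 in hpr1del, 649.9 and 699.8 in tho2del and 3578 and 4415 (1 cell empty) in WT. ADE17 was 3.95-fold lower (-1.98 ± 0.10 SE, limma adjusted p = 4.3e-05). SHM2, which makes glycine and one-carbon units, read 3274 and 3427 in sub2del, against 7730, 8102 and 7440 in hpr1del (2.31-fold lower). Pyrimidine genes were 3 of 10 lower and 2 higher, median 0.03 (with the class block 3 of 10 lower and 1 higher, median -0.44), with URA10 (-1.19 ± 0.14) and URA6 (-0.66 ± 0.052) lower and URA7 (0.57 ± 0.07) and URA1 (0.37 ± 0.1, -0.52 with the class block) higher. URA1 was not called with the class block (limma adjusted p = 0.221).

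Vitamin and cofactor genes held single large differences, and their counts on the 5 arrays are to be read beside 46.9% lower and 21.6% higher over all tested probe sets. BIO2, biotin synthase, read 6096 and 6510 in sub2del, against 1742, 1758 and 1842 in hpr1del, 5095 and 5199 in tho2del and 829.7, 444 and 377 in WT. Its level was 3.52-fold higher in sub2del (1.81 ± 0.058 SE, limma adjusted p = 2.04e-05), and the strains stood in the order sub2del, tho2del, hpr1del and WT without overlap. VHR1, an activator of biotin genes, read 883 and 874 in sub2del, against 1659, 1766 and 1874 in hpr1del (-0.99 ± 0.066 SE, limma adjusted p = 8.7e-05), BIO4 334 and 433 in sub2del, against 804, 780 and 674 in hpr1del (-0.95 ± 0.13 SE, limma adjusted p = 0.00096) and BIO3 621 and 675 in sub2del, against 852, 831 and 756 in hpr1del (-0.32 ± 0.074 SE, limma adjusted p = 0.00907), all lower. BIO5, a dim permease gene, was higher by 0.47 ± 0.08, and BPL1, the biotin ligase, was not called (-0.05). NAD synthesis genes were 7 of 12 lower and 2 higher, median -0.27 (with the class block 3 of 11 lower and 0 higher, median -0.38), with BNA1 at 472 and 610.1 in sub2del, against 1024, 1094 and 1121 in hpr1del (1.98-fold lower), BNA7 at -0.78 ± 0.058, NMA2 at -0.49 ± 0.071 and the nicotinic acid permease TNA1 at -0.43 ± 0.05. Thiamine genes were 5 of 10 lower and 2 higher, median -0.14 (with the class block 5 of 10 lower and 1 higher, median -0.46), with PHO3, a secreted phosphatase that frees thiamine, at 14705 and 13924 in sub2del, against 9232, 9500 and 9510 in hpr1del (0.60 ± 0.053), THI22 at 0.62 ± 0.06, THI80 at -0.42 ± 0.057 and THI20 at -0.45 ± 0.061. Not called with the class block were BIO5 (0.03, limma adjusted p = 0.928), TNA1 (-0.15, limma adjusted p = 0.667), THI22 (0.19, limma adjusted p = 0.528) and THI80 (-0.41, limma adjusted p = 0.0657).

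In carbon use, the glycolysis and fermentation list was 10 of 22 lower and 1 higher, median -0.16 (with the class block 4 of 21 lower and 0 higher, median -0.05). GLK1, glucokinase, read 3199 and 3024 in sub2del, against 6282, 6504 and 6871 in hpr1del, 3956 and 4111 in tho2del and 15062, 8472 and 6392 in WT. GLK1 was 2.1-fold lower (-1.07 ± 0.062 SE, limma adjusted p = 6.17e-05). PFK2, ALD4 and ADH4 were 1.55-fold, 1.92-fold and 1.59-fold lower. Hexose transporters and their regulators were 4 of 16 lower and 6 higher, median 0.21 (with the class block 3 of 12 lower and 0 higher, median 0.33), and 7 more were untested. MIG2, a repressor used in glucose, read 1502 and 1593 in sub2del, against 514, 488 and 509.5 in hpr1del, 1359 and 1351 in tho2del and 2094 (2 cells empty) in WT. Its level was 3.01-fold higher in sub2del (1.59 ± 0.056 SE, limma adjusted p = 2.39e-05). HXT7, a high-affinity transporter, read 5142 and 4696 in sub2del, against 10474, 11567 and 11859 in hpr1del (2.29-fold lower), on a probe set that may also pick up related genes, while HXT1, a low-affinity one, differed by 0.90. RGT1 and HXT5 were lower, at log2 differences of -0.77 ± 0.076 and -0.84 ± 0.10. Galactose, maltose and sucrose genes were 4 of 7 lower and 2 higher, median -0.39 (with the class block 1 of 7 lower and 1 higher, median -0.02), with MAL33 (967 and 744 in sub2del, against 384, 394 and 402 in hpr1del, 2.11-fold higher), GAL1 (0.74 ± 0.059), MAL11 (-0.92 ± 0.073) and GAL80 (-0.39 ± 0.05). GLK1 (-0.86, limma adjusted p = 0.205), ALD4 (-0.57, limma adjusted p = 0.507), MAL11 (-0.08, limma adjusted p = 0.945) and GAL1 (0.46, limma adjusted p = 0.101) were not called with the class block.

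Phosphate genes were lower in 11 of 15 cases and higher in 1 (median -0.34; with the class block 7 of 15 lower and 1 higher, median -0.21), with 7 untested. SPL2, which lowers low-affinity uptake, read 89.8 and 65.3 in sub2del, against 304, 284 and 257 in hpr1del, 86.2 and 77.8 in tho2del and 333, 353 and 417 in WT. SPL2 was 3.2-fold lower (-1.68 ± 0.13 SE, limma adjusted p = 0.000124). PHO84, the high-affinity transporter, differed by -1.56. PHO90, a low-affinity transporter, read 7029 and 6879 in sub2del, against 3679, 3603 and 3682 in hpr1del, 4366 and 5009 in tho2del and 5183, 5164 and 5345 in WT. The gene was 1.9-fold higher (0.93 ± 0.049 SE, limma adjusted p = 4.9e-05). PHM8 and the regulator PHO81 were 2.2-fold and 1.67-fold lower.

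Cell wall integrity genes were lower in 19 of 29 cases and higher in 5 (median -0.32; with the class block 7 of 29 lower and 4 higher, median -0.22). In this list sub2del lay at WT (median 0.01) and hpr1del above it (0.34). SLT2, the MAP kinase of the pathway, read 5152 and 5388 in sub2del, against 8694, 8270 and 8184 in hpr1del, 6142 and 6291 in tho2del and 4316, 5099 and 4507 in WT. SLT2 was 1.59-fold lower in sub2del (-0.67 ± 0.056 SE, limma adjusted p = 0.000175). The sensor gene MTL1 read 434 and 450.2 in sub2del, against 837, 829 and 836 in hpr1del (1.85-fold lower). YPS1, a surface protease, read 1526 and 1621 in sub2del, against 2899, 2857 and 2979 in hpr1del (1.84-fold lower). Repeat-rich mannoproteins were 6 of 17 lower and 5 higher, median -0.05 (with the class block 2 of 16 lower and 3 higher, median 0.19). TIP1 read 20595 and 21619 in sub2del, against 10471, 11938 and 11766 in hpr1del, 17298 and 17396 in tho2del and 8449, 2947 and 2314 in WT. Its level was 1.85-fold higher (0.89 ± 0.075 SE, limma adjusted p = 0.000173). DAN4 read 579.6 and 583 in sub2del, against 268, 249 and 225 in hpr1del, 2.27-fold higher, and TIR4 read 473 and 464 in sub2del, against 821, 771 and 760 in hpr1del, 1.65-fold lower but 0.65 with the class block. With that block YPS1 (-0.46, limma adjusted p = 0.0768), TIP1 (1.47, limma adjusted p = 0.152) and TIR4 (0.65, limma adjusted p = 0.0553) were not called.

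Mating genes were 11 of 25 lower and 3 higher, median -0.14 (with the class block 5 of 25 lower and 3 higher, median 0.07), and 9 of the 34 on the array were untested. On the 5 arrays 46.9% of all tested probe sets were lower and 21.6% higher. PRM4 read 346 and 394 in sub2del, against 1095, 1030 and 1149 in hpr1del, 764 and 868 in tho2del and 2956, 1885 and 2421 in WT. PRM4 was 2.87-fold lower (-1.52 ± 0.078 SE, limma adjusted p = 4.39e-05). The agglutinin gene AGA1 read 617 and 539 in sub2del, against 1056, 1401 and 1365 in hpr1del, 1222 and 1330 in tho2del and 624, 517 and 649 in WT. Its level was 2.16-fold lower (-1.11 ± 0.14 SE, limma adjusted p = 0.000679). PRM5 and STE50 were lower, at log2 differences of -0.43 ± 0.056 and -0.60 ± 0.082. Of 49 meiosis and sporulation genes 25 were untested, with hpr1del levels from 12.3 to 542.5, and the rest were 8 of 24 lower and 9 higher, median 0.07 (with the class block 9 of 20 lower and 3 higher). RED1 (982 and 986 in sub2del, against 513, 489.5 and 487 in hpr1del) and SSP2 (463 and 491 in sub2del, against 219.8, 206 and 239 in hpr1del) were 1.95-fold and 2.08-fold higher, and SPO1 (202 and 179 in sub2del, against 437, 414 and 426 in hpr1del) and NDT80 (145 and 133 in sub2del, against 306, 286 and 307 in hpr1del) 2.14-fold and 2.04-fold lower. The WT difference of the sporulation list was 0.48 and its blocked median -0.64, away from the median of 0.07 above. PRM5 (-0.43, limma adjusted p = 0.101) and SSP2 (0.43, limma adjusted p = 0.157) were not called with the class block.

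Lists of nuclear RNA machinery, where both deleted genes act, had medians from -0.14 to 0.06, beside -0.16 over all tested probe sets. From 50% to 70% of their tested members were called, beside 68.5% of all tested probe sets. Export factors were 9 of 21 lower and 5 higher, median -0.04 (with the class block 5 of 21 lower and 4 higher, median -0.06), with SUS1, of TREX-2 and SAGA, at 1178 and 1242 in sub2del, against 612, 701 and 709 in hpr1del (1.78-fold higher, 0.83 ± 0.08 SE, limma adjusted p = 0.000274), MLP2, of the nuclear basket, 1.62-fold higher, and THP1 and PML39 lower, at log2 differences of -0.47 ± 0.058 and -0.49 ± 0.048. SUS1 was also higher than in tho2del, by 1.23 (limma adjusted p = 0.00021). Nuclear pore genes were 10 of 26 lower and 6 higher, median -0.12 (with the class block 4 of 25 lower and 6 higher, median -0.11), with NUP170 at 3629 and 4127 in sub2del, against 1686, 1926 and 1971 in hpr1del (2.08-fold higher, 1.05 ± 0.093 SE, limma adjusted p = 0.000204) and NUP192 higher by 0.61 ± 0.074, and with POM33 and ASM4 lower, at log2 differences of -0.89 ± 0.084 and -0.56 ± 0.061. POM33 (-0.59, limma adjusted p = 0.161) was not called with the class block. Exosome, TRAMP and Nrd1 genes were 8 of 20 lower and 6 higher, median -0.14 (with the class block 3 of 20 lower and 3 higher, median -0.26). The helicase MTR4 was higher by 0.62 ± 0.064, AIR1 and AIR2 by 0.63 ± 0.069 (-0.06 with the class block) and 0.45 ± 0.061, and NRD1 was lower, at a log2 difference of -0.60 ± 0.073. AIR1 was not called with the class block (limma adjusted p = 0.902). Genes of 3' end processing were 6 of 16 lower and 2 higher, median -0.11 (with the class block 4 of 16 lower and 1 higher, median -0.17), with CLP1, PFS2, SYC1 and YSH1 among the lower ones, at -0.66 to -0.43. Elongation factors were 4 of 20 lower and 6 higher, median 0.06 (with the class block 2 of 20 lower and 2 higher, median 0.01). SET2, a histone methyltransferase that travels with the polymerase, read 1591 and 1541 in sub2del, against 677, 690.3 and 605 in hpr1del, 928 and 1024 in tho2del and 684, 847 and 773 in WT. SET2 was 2.35-fold higher (1.23 ± 0.072 SE, limma adjusted p = 6.23e-05). RTT103 was 1.56-fold higher, and CDC73 and SPT5 were lower, at log2 differences of -0.48 ± 0.068 and -0.48 ± 0.072.

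Spliceosome genes were 16 of 50 lower and 16 higher, median -0.04 (with the class block 8 of 50 lower and 6 higher, median -0.16). Over all tested probe sets 46.9% were lower and 21.6% higher. PRP6 read 4806 and 5711 in sub2del, against 1517, 1523 and 1462 in hpr1del, 4340 and 5132 in tho2del and 1627, 2411 and 1860 in WT. Its level was 3.47-fold higher in sub2del (1.79 ± 0.082 SE, limma adjusted p = 3.43e-05). ISY1 read 1578 and 1742 in sub2del, against 585, 540.1 and 518 in hpr1del, 2.97-fold higher. NAM8, a U1 protein needed for meiotic splicing, read 441 and 431 in sub2del, against 1154, 1147 and 1089 in hpr1del, 640.1 and 670.4 in tho2del and 1230, 1110 and 1035 in WT. NAM8 was 2.53-fold lower (-1.34 ± 0.054 SE, limma adjusted p = 2.75e-05). LSM5 was lower, at a log2 difference of -0.67 ± 0.049. RNA polymerase subunits were 11 of 29 lower and 7 higher, median -0.06 (with the class block 4 of 29 lower and 5 higher, median -0.19). RPB4, of polymerase II, read 6219 and 5894 in sub2del, against 2565, 2444 and 2478 in hpr1del, 3539 and 3510 in tho2del and 2240, 2754 and 2762 in WT. Its level was 2.42-fold higher (1.27 ± 0.055 SE, limma adjusted p = 3.17e-05). RPB5, RPA34 and RPA12 were 1.75-fold, 1.74-fold and 1.93-fold higher.

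Cytosolic ribosomal protein genes were the list with the most members and one of the least changed, 26 of 117 lower and 21 higher, median -0.03 (with the class block 6 of 116 lower and 15 higher, median 0.05), so that 40.2% of them were called against 68.5% of all tested probe sets. RPS22B and RPS9A stood out from it. RPS22B read 2340 and 2373 in sub2del, against 8461, 8689 and 8655 in hpr1del, 9746 and 9965 in tho2del and 9446, 8291 and 9767 in WT. RPS22B was 3.63-fold lower in sub2del (-1.86 ± 0.049 SE, limma adjusted p = 2.04e-05) and below every array of the other 3 strains, with a log2 difference of -2.06 (limma adjusted p = 5.35e-06) from tho2del. RPS9A read 1523 and 1007 in sub2del, against 4589, 4704 and 5118 in hpr1del, 3931 and 3461 in tho2del and 6257, 8086 and 8671 in WT. Its level was 3.84-fold lower (-1.94 ± 0.17 SE, limma adjusted p = 0.000191) and below every array of the other strains, with a log2 difference of -1.56 (limma adjusted p = 0.000635) from tho2del. RPS14B was 1.91-fold higher (13208 and 13165 in sub2del, against 6469, 6827 and 7463 in hpr1del) and RPL19A 1.44-fold. Each of these genes has a near-identical paralog, and how far the probes tell the copies apart is not known here. Ribosome biogenesis factors were 16 of 75 lower and 26 higher, median 0.03 (with the class block 6 of 75 lower and 11 higher, median -0.01), with UTP18 (4859 and 4568 in sub2del, against 2353, 2219 and 2291 in hpr1del) and SSF1 (2280 and 2443 in sub2del, against 1143, 1083 and 1074 in hpr1del) 2.05-fold and 2.13-fold higher and MAK16 and SAS10 1.85-fold and 1.74-fold. UTP18 (0.66, limma adjusted p = 0.0633) was not called with the class block. Cytosolic aminoacyl-tRNA synthetases were 15 of 18 lower and 2 higher, median -0.25 (with the class block 13 of 18 lower and 1 higher, median -0.41), with ALA1, FRS1 and CDC60 lower, at log2 differences of -0.54 ± 0.064, -0.48 ± 0.064 and -0.43 ± 0.058 and ILS1 higher by 0.52 ± 0.049.

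Proteasome genes were among the few groups with more higher than lower calls, at 16 of 34 higher and 4 lower (median 0.15; with the class block 1 of 34 lower and 11 higher, median 0.14 and 0.02 between WT arrays). UMP1, a chaperone of proteasome assembly, read 6167 and 5921 in sub2del, against 2574, 2527 and 2619 in hpr1del, 2718 and 2488 in tho2del and 1542, 1873 and 1679 in WT. UMP1 was 2.34-fold higher in sub2del (1.23 ± 0.052 SE, limma adjusted p = 3.01e-05) and above every other array. RPN11, the deubiquitinase of the lid, read 5969 and 5726 in sub2del, against 3273, 3107 and 3097 in hpr1del, 5767 and 6249 in tho2del and 2784, 2253 and 2444 in WT. Its level was 1.85-fold higher (0.89 ± 0.055 SE, limma adjusted p = 7.3e-05). RPT2 read 8618 and 8642 in sub2del, against 5157, 5256 and 5217 in hpr1del, 1.65-fold higher, and ECM29 was 1.65-fold higher. RPN4, the activator of proteasome genes, was not called, at a log2 difference of 0.19.

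Cell cycle lists had calls in both directions, to be read beside 46.9% lower and 21.6% higher over all tested probe sets. G1/S genes were 13 of 37 lower and 11 higher, median -0.11 (with the class block 7 of 37 lower and 12 higher, median 0.02), with the histone chaperone ASF1 (2509 and 2821 in sub2del, against 1215, 1237 and 1266 in hpr1del) 2.13-fold higher, RFA3 (5857 and 5697 in sub2del, against 3022, 2913 and 3150 in hpr1del) 1.9-fold, and SWI6 and POL12 1.8-fold and 1.84-fold. G2/M genes were 8 of 22 lower and 8 higher, median 0.02 (with the class block 3 of 22 lower and 4 higher, median 0.13). CHS2, the chitin synthase of the septum, read 5182 and 5306 in sub2del, against 2040, 2090 and 2139 in hpr1del, 2926 and 2788 in tho2del and 2248, 1586 and 1739 in WT. CHS2 was 2.5-fold higher (1.32 ± 0.052 SE, limma adjusted p = 2.74e-05) and above every other array. BUD4 was 2.07-fold and CDC5 1.75-fold higher, and MCM1 was lower, at a log2 difference of -0.58 ± 0.077. In both lists the mutants stood above WT by similar medians (0.47 and 0.63 in sub2del, 0.46 and 0.58 in hpr1del).

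Kinetochore, spindle pole body and condensin genes were 11 of 37 lower and 13 higher, median 0.01 (with the class block 4 of 33 lower and 4 higher, median -0.17). KAR1, of the spindle pole body, read 2840 and 2710 in sub2del, against 922, 894 and 967 in hpr1del, 2673 and 3391 in tho2del and 369, 384 and 359 in WT. Its level was 2.96-fold higher in sub2del (1.56 ± 0.059 SE, limma adjusted p = 2.6e-05). MTW1 read 1139 and 1115 in sub2del, against 603, 583 and 580.2 in hpr1del (1.89-fold higher) and NNF1 1598 and 1674 in sub2del, against 847, 790.4 and 729.8 in hpr1del (2.06-fold), and neither was called with the class block (0.06 and 0.49). BRN1, a condensin subunit, was dim everywhere, at 99.1 and 178 in sub2del, against 14.9, 13.3 and 16.9 in hpr1del, 153 and 28.1 in tho2del and 11.8 and 4.61 (1 cell empty) in WT. Its hpr1del values lay about the offset of 16, so no fold is given.

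Histone genes were 5 of 9 lower and 2 higher, median -0.28 (with the class block 2 of 9 lower and 0 higher, median -0.23), with HHO1, the linker histone (2203 and 2161 in sub2del, against 4196, 3922 and 3750 in hpr1del), and HTA1 (7815 and 7219 in sub2del, against 13176, 13087 and 12960 in hpr1del) 1.8-fold and 1.74-fold lower, and HTB1 and HHT2 lower, at log2 differences of -0.35 ± 0.05 and -0.28 ± 0.05. Copies of histone genes are close in sequence, and values of such pairs are uncertain. DNA damage genes were 7 of 23 lower and 6 higher, median -0.10 (with the class block 4 of 22 lower and 2 higher, median -0.11). HUG1 read 379.9 and 328 in sub2del, against 631, 668 and 604 in hpr1del (-0.82 ± 0.08), RNR1 2311 and 2234 in sub2del, against 3629, 3749 and 3694 in hpr1del (-0.70 ± 0.051), RNR3 634 and 516 in sub2del, against 1194, 1075 and 1110 in hpr1del (-0.96 ± 0.098), and the kinase gene TEL1 was higher by 0.74 ± 0.061. Recombination genes were 5 of 15 lower and 4 higher with a median near 0, among them SLX1 (912 and 1003 in sub2del, against 495, 471 and 455 in hpr1del), RAD59 and RDH54 1.99-fold, 1.77-fold and 1.6-fold higher and MRE11 lower, at a log2 difference of -0.40 ± 0.051. RNase H and topoisomerase genes, which limit RNA-DNA hybrids and supercoils, were 6 of 10 lower and 2 higher, median -0.34 (with the class block 4 of 10 lower and 1 higher, median -0.37). TOP1, topoisomerase I, read 3299 and 3266 in sub2del, against 1496, 1562 and 1793 in hpr1del, 3235 and 3931 in tho2del and 1112, 1485 and 1483 in WT. TOP1 was 2.03-fold higher in sub2del (1.02 ± 0.085 SE, limma adjusted p = 0.000174). The helicases PIF1 and RRM3 and topoisomerase II, TOP2, were lower, at log2 differences of -0.53 ± 0.063, -0.72 ± 0.11 and -0.37 ± 0.057. Genes of ESCRT and the nuclear envelope, CHM7 included, were 1 of 15 lower and 5 higher, median 0.12 (with the class block 0 of 15 lower and 5 higher, median 0.26), with VPS36 at -0.41 ± 0.048, POM152 at 0.29 ± 0.054 and VPS20 at 0.30 ± 0.059. Not called with the class block were HTB1 (-0.27, limma adjusted p = 0.0832), HHT2 (-0.23, limma adjusted p = 0.164), VPS36 (-0.19, limma adjusted p = 0.391) and VPS20 (0.49, limma adjusted p = 0.0508).

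**Figure D4:**
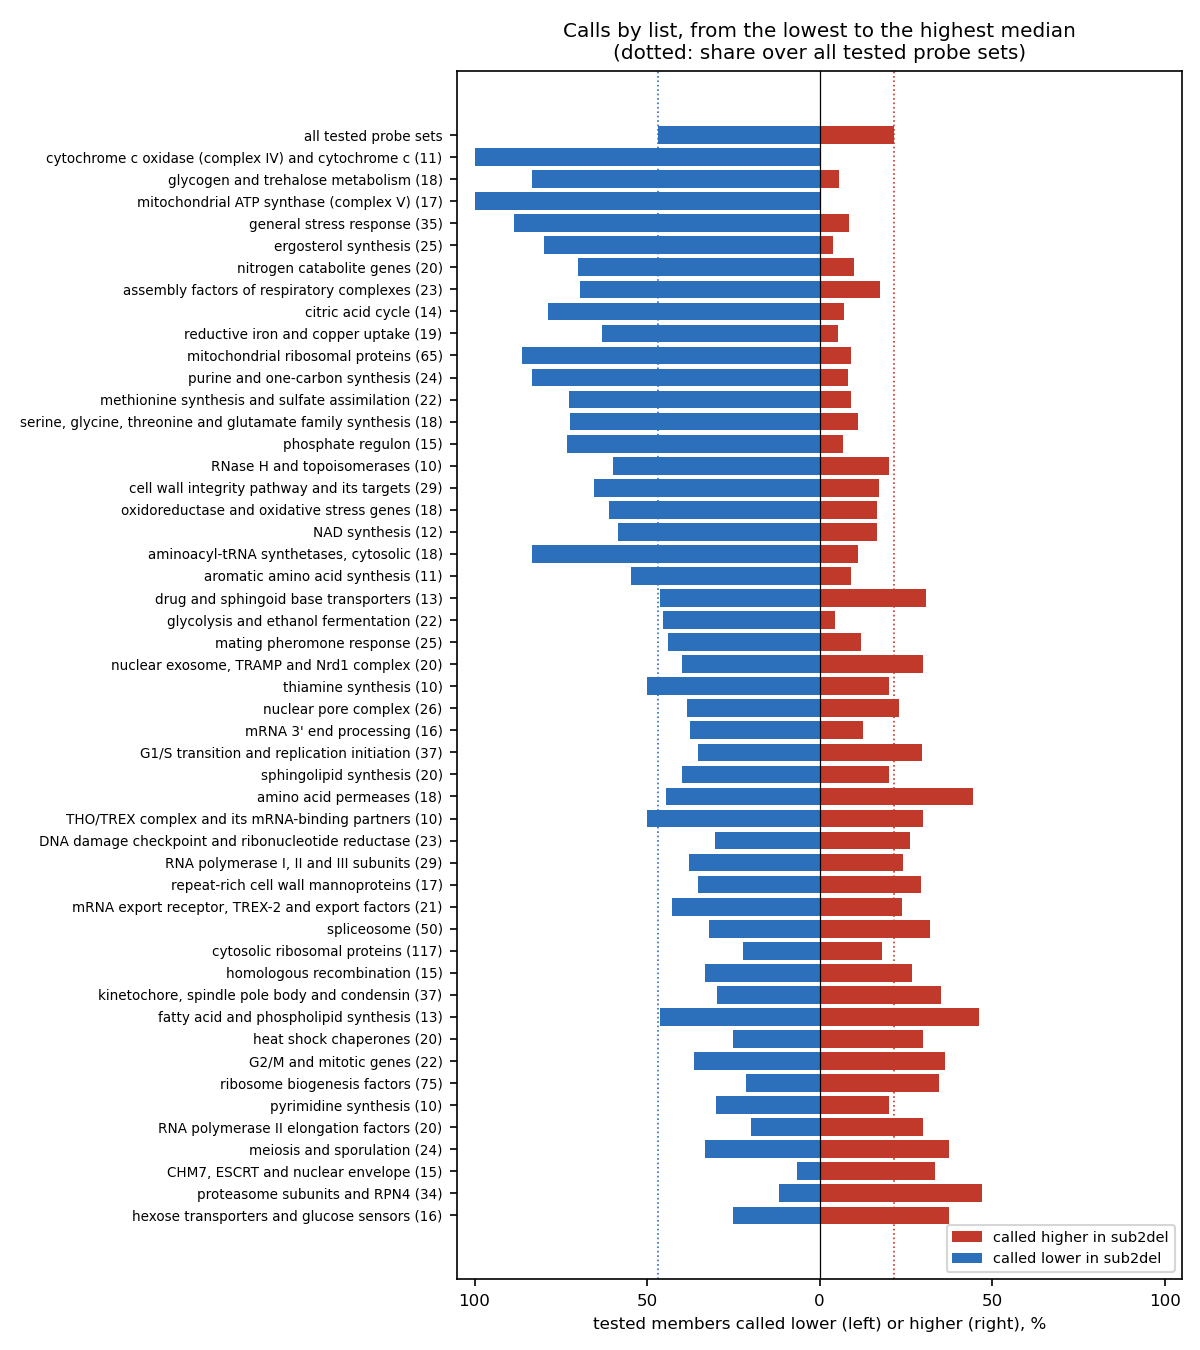
Share of tested members called lower (left, blue) and higher (right, red) in sub2del against hpr1del, for the lists with 10 or more tested members (number in brackets) in order of their median log2 difference, below all tested probe sets. Complexes IV and V reach 100% lower, and the proteasome and the hexose transporters lie at the other end.

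**Figure D5:**
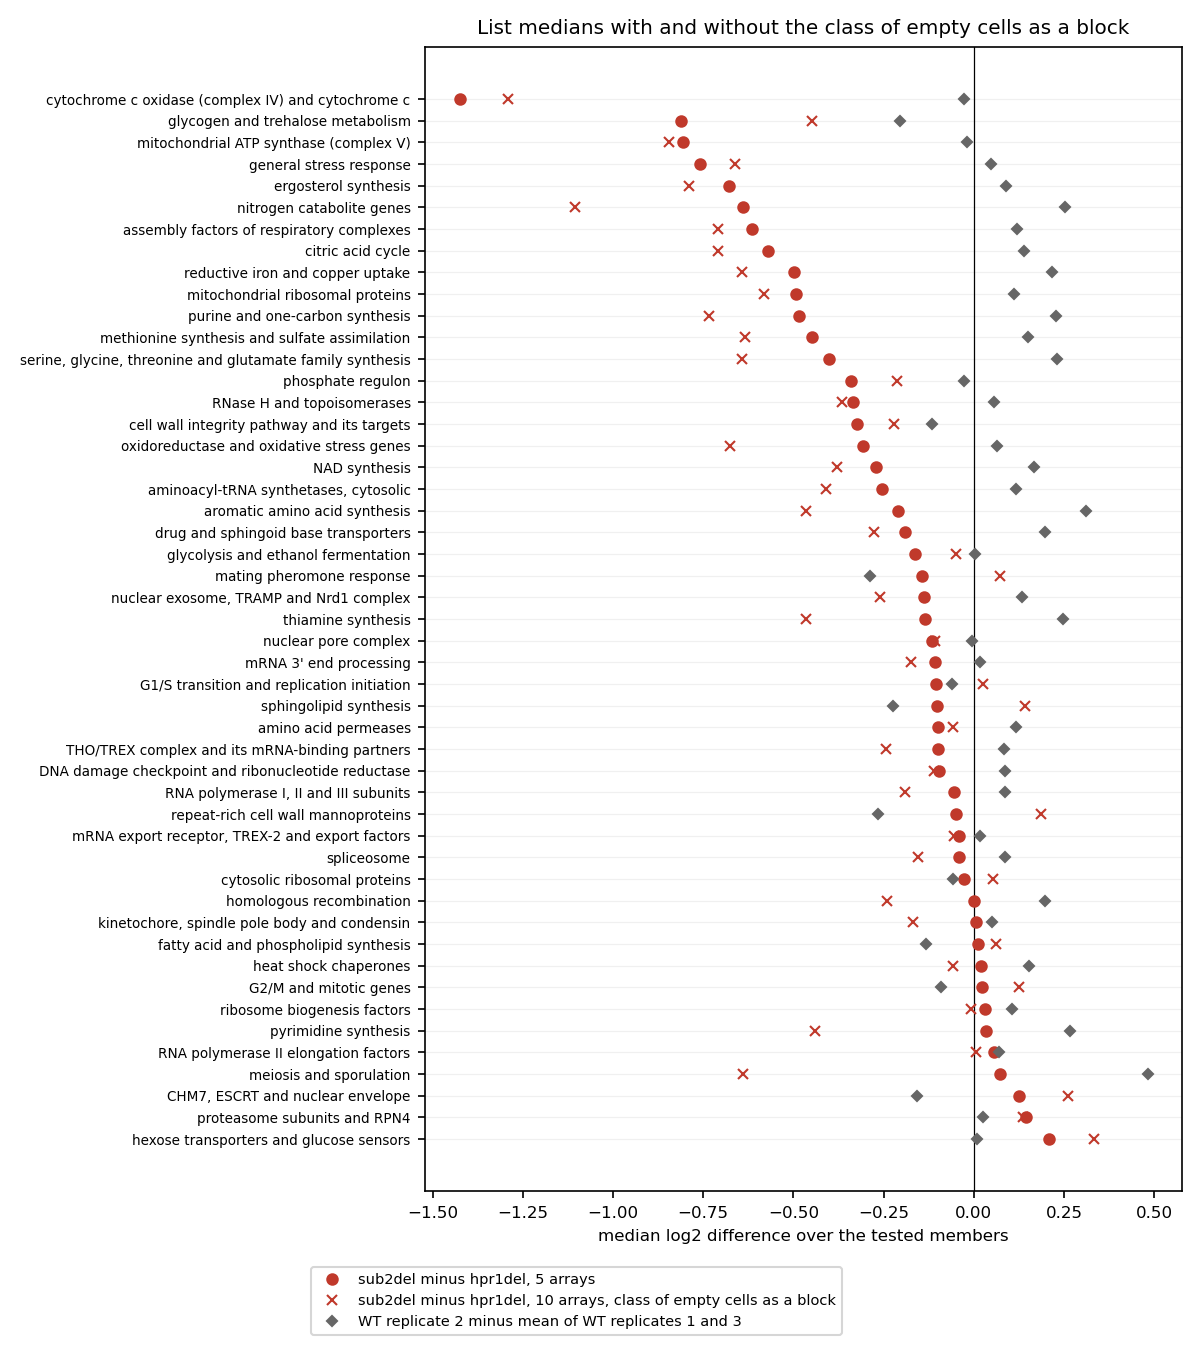
Median log2 difference of the same lists for sub2del minus hpr1del on the 5 arrays (red circles) and on all 10 arrays with the class of empty cells as a block (red crosses), beside WT replicate 2 minus the mean of WT replicates 1 and 3 (grey diamonds). Respiratory, ergosterol and stress lists keep medians below -0.4 in both fits, and pyrimidine and sporulation genes have medians near 0 on 5 arrays and below -0.4 with the block.

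The difference of sub2del from tho2del was tested in a fit on the 7 mutant arrays, where 1995 of 4496 probe sets (44.4%) were called. Of the genes described above as higher in sub2del than in every other strain, UMP1 differed from tho2del by 1.21 (limma adjusted p = 0.000125), CHS2 by 0.87 (limma adjusted p = 0.000197), TAT1 by 0.77 (limma adjusted p = 0.00021) and CHM7 by 0.78 (limma adjusted p = 0.00101). Lower than in tho2del were CWP1, by -1.77 (limma adjusted p = 0.000125), OYE3, by -2.00 (limma adjusted p = 0.000327), and PRM4, by -1.11 (limma adjusted p = 0.000257). Of the respiratory genes, RIP1 differed from tho2del by -0.31 (limma adjusted p = 0.0228), CYT1 by -0.45 (limma adjusted p = 0.00624), COX4 by -0.52 (limma adjusted p = 0.00368), COX7 by -0.64 (limma adjusted p = 0.00144) and NDE1 by -0.01 (limma adjusted p = 0.898). This fit shares the sub2del and hpr1del arrays with the main comparison.

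Long transcripts are often discussed for THO mutants, so genes were set in 5 bins of coding length. The median log2 difference was -0.13 in the shortest bin (78 to 669 bases) and -0.15 in the longest (2121 to 14733 bases), with -0.18, -0.18 and -0.17 between. Shares called were 24.4% higher and 44.3% lower in the shortest bin and 22.4% higher and 46.3% lower in the longest. No test of length was run.

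The 885 untested probe sets were not a random part of the array. For 411 of them sub2del had no value, for 468 it had 1, and 8 had under 2 hpr1del values. Untested for sub2del values, probe sets had a median hpr1del intensity of 760, against 1587 for tested ones. Bright genes were untested too, among them 10 cytosolic ribosomal protein genes with hpr1del means from 12180 to 24406. The results above therefore lean toward brighter probe sets and say nothing of the untested ones.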

How the data were processed

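Per the labels, total RNA of 4 yeast strains was labelled and hybridised to 1-colour Affymetrix arrays, and the arrays were grouped by the strain in their titles. The deposited values are linear intensities that the authors had already summarised to 1 for each probe set on each array. For the software, background correction and scaling, nothing is given in the sources used here. Array medians were 1346 and 1374 in sub2del, against 1447, 1425 and 1442 in hpr1del, and a global difference in mRNA, if there was one, may have been scaled out before deposit. Arrays have no read depth, and their number limits the precision.

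Intensities were taken to log2 after adding 16, and a model of the 5 arrays (lmFit and eBayes of limma 3.58.1, R 4.3.3) was run on probe sets with at least 2 values per strain, with Benjamini-Hochberg adjustment over 4831 probe sets. Fold changes are on the scale with the offset, which understates changes of dim genes. The fit was tested on simulated data. Tables and plots were made with Python 3.11.15, pandas 2.3.3 and matplotlib 3.10.9. Genes came from the platform's annotation, with symbols updated through RefSeq's gene table of assembly R64 (5498 probe sets with 1 gene, 218 without). A gene with several probe sets is given by the one with the highest mean over the 5 arrays. 92.22% of the transcript lengths in that table are multiples of 3, so they were used as coding lengths, in place of a planned use of protein lengths. A planned search of promoters for motifs was not run, and no sequences are printed.

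Named genes were the 15 highest and 15 lowest among called genes whose strains did not overlap and whose higher strain averaged 200 or more, up to 4 members per list by adjusted p, all members of lists of 6 or fewer genes, the genes of the complex, the markers and the neighbours of the deletions. Other list members quoted with a log2 difference alone were added after their values were seen. The members and all 66 lists were chosen with earlier results of these data known. The arrays were not paired by replicate number in the main fit. Deviations of same-numbered sub2del and hpr1del arrays correlated over probe sets with r of 0.0763 and 0.0629. For sub2del replicate 1 with hpr1del replicate 2 r was -0.0629, and for sub2del replicate 2 with hpr1del replicate 1 it was -0.0763. Deviations of 2 sub2del arrays mirror each other, so these values cannot settle whether the arrays were paired. Alternatives changed the offset, scaling, filters, arrays in the fit, array weights, prior, empty cells, replicate block and each replicate in turn.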

Additional observations from a re-analysis of the deposited data

How the results depend on the processing

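Of 3310 calls in sub2del against hpr1del (1045 higher, 2265 lower), the fit on 10 arrays with the class of empty cells as a block gave 1702 (545 higher, 1157 lower) of 4598 probe sets tested, and of 3160 original calls that it could test 1598 were called in the same direction, 13 in the opposite one and 2931 had the same sign. In that fit the class is estimated from WT replicate 2 against WT replicates 1 and 3 alone. The median changed sign with it for mating (to 0.072), G1/S (0.025) and sphingolipid genes (0.14). It also changed sign in lists with a median within 0.1 of 0, to -0.64 for sporulation, -0.44 for pyrimidine, -0.24 for recombination, -0.17 for kinetochore, -0.057 for heat shock and -0.0086 for ribosome biogenesis genes, 0.19 for mannoproteins and 0.054 for cytosolic ribosomal protein genes. Of 267 called named genes with a value there, 42 lost their call and 6 changed sign, to -0.061 for AIR1, -0.48 for MDH2, -0.49 for HIS7, -0.52 for URA1, 0.65 for TIR4 and -0.12 for URA3, and the cause was not tested. Of these 6 only MDH2 was called in its new direction. Every other setting kept the count of calls within 1.5 times. Leaving out each replicate in turn gave 2863 to 3435 calls, and the median of the Ehrlich list ran from -0.16 to 0.058, above 0 only without sub2del replicate 2. With a single sub2del array, that array is assumed to vary like the others. With the replicate block 2832 probe sets were called (884 higher, 1948 lower) and 6 named genes lost their call. An offset of 1 gave 3293 calls, an offset of 64 gave 3341, quantile normalization 3217, subtraction of array medians 3155, the brighter probe sets alone 2600 of 3623, the 7 mutant arrays 3269 and all 10 arrays 2513. Subtracting array medians moved the median of all tested probe sets to -0.085 from -0.16 and made 1267 calls higher, and under it or under quantile normalization the medians of export, arginine, mannoprotein, sporulation, polymerase, cytosolic ribosome and spliceosome lists changed sign, all of them within 0.1 of 0, so no direction is given for those lists. Of 289 called named genes 32 lost their call or changed sign in some setting other than the class block, THO2, THP2 and YCF1 in several. Probe sets short of sub2del values, which were dimmer in the median, set the limit of what could be compared.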

Other observations

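Of 173 tested probe sets without a gene in the annotation, 129 were called, and 18 of 30 genes with more than 1 tested probe set had probe sets that differed in call. In 5 bins of mean intensity the median log2 difference (sub2del minus hpr1del) was -0.18, -0.18, -0.20, -0.14 and -0.12 from dim to bright, so the shift toward lower values in sub2del was present at every level.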
